A study of Mus musculus with 6 samples.

Results

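Collagens are the chains of the triple-helical proteins that give the extracellular matrix its strength. All genes whose symbol has the form Col, number, a, number were taken from the expression table, which gave 44 chains among 22322 genes. By class these were 11 fibrillar chains, 6 basement membrane (type IV) chains, 6 microfibrillar (type VI) chains, 9 FACIT chains (fibril-associated collagens with interrupted triple helices) and 4 transmembrane chains. The rest were 2 multiplexins (types XV and XVIII), 3 short-chain network chains (types VIII and X), the anchoring fibril chain Col7a1, and Col26a1 and Col28a1, which were kept as other. The RNA came from epididymal white adipose tissue (the visceral fat pad beside the testis) of mice on a high fat diet. There were 3 libraries of wild type and 3 of CD44 KO, a knockout of the cell surface receptor for hyaluronan, and the comparison addresses the function of CD44 in this fat. Both genotypes had received this diet for 17 weeks, so the wild type libraries are controls on the same diet and no lean control was analysed here. Strain, age, the knockout allele and whether each library is 1 animal were not stated in the labels, so p-values measure only the spread between these libraries, which may be technical.

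A collagen molecule is built from 3 chains that wind around each other along repeats of glycine and any other 2 residues (Gly-X-Y). Fibrillar chains are secreted as procollagens, trimmed at their ends and packed into crosslinked fibrils, whereas type IV chains form the sheet on which adipocytes and vessels sit and type VI chains form beaded filaments between sheet and fibrils. In obese fat, fibroblasts and progenitors are known as the main source of fibrillar collagen, and type VI collagen is known to stiffen the matrix around adipocytes. Repeats were counted in the longest open reading frame found among each gene's coding transcripts (GENCODE M21). The longest uninterrupted Gly-X-Y run held 338 triplets in Col1a1, 339 in Col1a2, 344 in Col3a1 and 339 in Col5a2. The longest run was 87 triplets in Col6a1 and Col6a2, 45 in Col6a3, 61 in Col8a1, 52 in Col16a1 and 32 in Col14a1. The fibrillar chains named here thus each carry 1 long run, and the FACIT chains Col14a1 and Col16a1 carry shorter ones. Other chains of these classes differ, with a longest run of 217 triplets in the fibrillar Col27a1 and 113 in the FACIT Col22a1.

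The stretch of 150 bases before the start of transcription is printed for 5 chains whose values are given in full below, so that chains of 4 classes with different values can be compared: the abundant fibril chain Col3a1, the fibril chain Col5a1, the type VI chain Col6a3, the called chain Col8a1 and the type IV chain Col4a6. The sequences are RefSeq's for GRCm38.p6 and were matched by symbol for 35 of the 44 chains (38 windows). Capitals mark TATAAA or GGGCGG (or its reverse complement CCGCCC), each read 5′ to 3′ on the gene's strand. The windows lie at chr1:45311388-45311537 (plus strand, Col3a1), chr2:27886275-27886424 (plus strand, Col5a1), chr1:90843972-90844121 (minus strand, Col6a3), chr16:57754738-57754887 (minus strand, Col8a1) and chrX:141474077-141474226 (minus strand, Col4a6), all upstream of the first exon and clear of annotated exons.
Col3a1: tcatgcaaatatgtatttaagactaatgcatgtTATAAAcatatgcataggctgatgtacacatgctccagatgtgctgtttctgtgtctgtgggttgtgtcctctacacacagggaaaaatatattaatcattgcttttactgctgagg
Col5a1: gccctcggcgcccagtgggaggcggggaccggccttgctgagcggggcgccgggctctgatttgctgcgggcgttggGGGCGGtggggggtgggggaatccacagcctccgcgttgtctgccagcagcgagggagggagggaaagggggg
Col6a3: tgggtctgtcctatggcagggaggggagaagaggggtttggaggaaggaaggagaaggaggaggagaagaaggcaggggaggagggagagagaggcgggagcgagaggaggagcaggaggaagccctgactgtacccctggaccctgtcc
Col8a1: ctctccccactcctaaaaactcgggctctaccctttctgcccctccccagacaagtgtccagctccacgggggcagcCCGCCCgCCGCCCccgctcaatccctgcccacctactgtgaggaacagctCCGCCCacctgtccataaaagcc
Col4a6: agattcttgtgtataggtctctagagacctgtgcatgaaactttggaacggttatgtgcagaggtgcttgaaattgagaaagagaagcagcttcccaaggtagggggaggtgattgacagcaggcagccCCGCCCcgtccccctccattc
The Col3a1 window holds 1 TATAAA, that of Col5a1 holds 1 GGGCGG, that of Col8a1 holds 3 CCGCCC, that of Col4a6 holds 1 CCGCCC and that of Col6a3 holds none of these. Searched on both strands, TATAAA, or TTTATA, was in 4 of the 35 chains' windows and in 7.57% of 32851 windows of the same length. GGGCGG, or CCGCCC, was in 19 of 35 and in 28.6% of all windows, and CCAAT, or ATTGG, in 8 of 35 and in 24.5%. A match is a description of the letters in this window.

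Total expected counts were 15543317 to 18765009 per library, and 37 to 41 of the 44 chains had at least 1 count in a library. Cd44 counts were 3091, 10580 and 6000 in wild type against 28, 50 and 34 in the knockout (log2 fold change -7.27, adjusted p by edgeR 0.0126), so the labels match the targeted gene. All 7 adipocyte markers were detected in every library, and they summed to 21820, 7998 and 14640 FPKM in wild type against 22840, 17030 and 26860 in the knockout. Of these 7 markers 6 had positive log2 fold changes (median 0.88). Without overlap 2 lay higher and 1 lower, where 19.7% and 18.1% of all genes tested did. The part of these markers in the collagen values was not tested. Summed over 9 epididymis markers, CD44 KO replicate 2 stood at 10030 FPKM (fragments scaled for transcript length and library size), with Lcn9 at 0 throughout. CD44 KO replicates 1 and 3 stood at 7.53 and 3.36 FPKM, both above the 0.81 to 1.60 of wild type. In CD44 KO replicate 2 the 8 mesothelial markers summed to 260.9 FPKM, against 21.9 and 40.0 in the other CD44 KO libraries and at most 6 FPKM in any wild type library. The keratins Krt18 and Krt8 made up 143.8 and 93.6 FPKM of the 260.9. Msln, Upk3b, Upk1b and Wt1 stood at 1.93, 5.05, 2.05 and 2.20 FPKM there, below their 2.13, 6.29, 3.48 and 3.09 in CD44 KO replicate 1. Krt19 and Lrrn4 were higher in replicate 2 than in replicate 1. The 7 macrophage markers summed to 2502 FPKM in CD44 KO replicate 1 and 92.7 and 384.6 in replicates 2 and 3, against 2145 to 5182 in wild type. In bulk tissue, fewer cells of a type and less RNA per cell cannot be told apart.

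Of the collagen chains, 4 fell in CD44 KO fat by the test across all genes, a fibril chain, a pair of FACIT chains and a chain of the type VIII network. Of the 44 chains 32 passed the filter on low counts, of which 19 had a negative and 13 a positive log2 fold change. Col8a1, Col16a1, Col14a1 and Col5a2 fell at an edgeR adjusted p under 0.05, that is 4 of 32 tested, where 0.882% of all 13829 genes tested were called lower. No chain was called higher (1.74% of all genes were). At an unadjusted edgeR p under 0.05, 15 chains were lower and 3 higher, against 14.7% and 16.3% of all genes. In 15 chains every CD44 KO library stood below every wild type library, and in 5 every one stood above, against 18.1% and 19.7% of all genes. The median log2 fold change of the 32 was -0.38, beside 0.03 over all genes tested. DESeq2 called 16 of 36 chains lower and 1 higher, where it called 9.74% and 9.92% of 14985 genes.

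Of the 15 tested chains with a mean of at least 10 FPKM, 14 had negative log2 fold changes (median -1.50) and in 11 the groups did not overlap. The other 4, Col5a3, Col15a1, Col18a1 and Col6a5, overlapped. Of 7 chains between 1 and 10 FPKM, 4 were negative. No count by direction is given for the chains under 1 FPKM, because the filter on low counts acted on them. Of the 32 chains 27 were over the count filter's minimum of 0.58 CPM (counts scaled to library size) in all 6 libraries. Col20a1, Col13a1 and Col17a1 were over it in 1 wild type and 3 CD44 KO libraries, so they passed through the group in which they are high, and they enter the counts and the median over the 32. Col10a1 and Col26a1, with more counts in wild type, did not pass the filter.

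**Figure D1:**
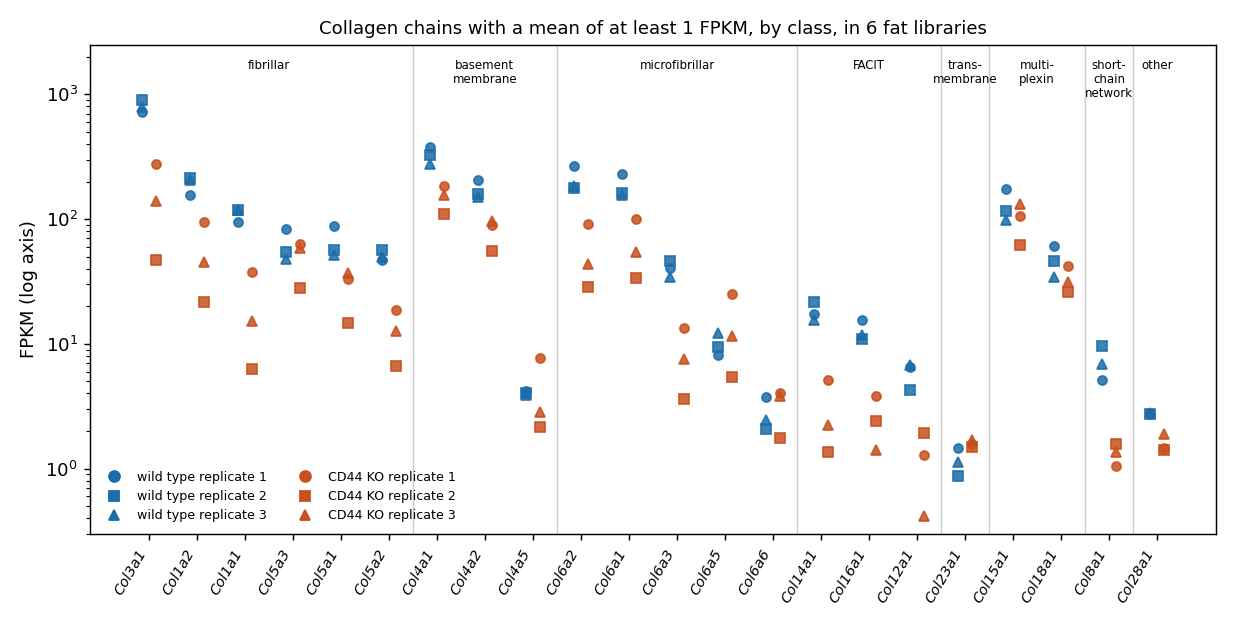
FPKM (log axis) of the chains with a mean of at least 1 FPKM, grouped by class, with 1 point per library (blue wild type, orange CD44 KO, shape by replicate). The fibrillar chains other than Col5a3, and Col4a1, Col4a2, Col6a1 to Col6a3, Col14a1, Col16a1, Col12a1, Col8a1 and Col28a1, show no overlap between genotypes, and the squares of CD44 KO replicate 2 are often the lowest.

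CD44 KO replicate 1 was nearest to wild type and replicate 2 farthest. Among the 15 chains that did not overlap downward, CD44 KO replicate 2 was the lowest library in 11 and CD44 KO replicate 1 the highest of its genotype in 11. Without CD44 KO replicate 1, 12 of 35 tested chains were called lower and 1 higher (Col4a6), where 9.65% and 7.13% of 14119 genes were. These 12 were the 4 called with all libraries and Col1a1, Col1a2, Col3a1, Col5a1, Col6a1, Col6a2, Col6a3 and Col4a5. Without CD44 KO replicate 2, the library with by far the most epididymis transcripts, Col8a1 alone was called (log2 fold change -2.57, edgeR adjusted p 0.0497). That fit called 36 of all genes lower and 64 higher. Without wild type replicate 1, Col8a1 was also the 1 chain called, where 62 of all genes were called lower and 248 higher. Without replicate 2 or 3 of wild type or replicate 3 of CD44 KO no chain was called. Of all genes, those fits called only 7, 0 and 2 lower and 2, 0 and 5 higher. In each of these fits 15 chains were lower at an unadjusted edgeR p under 0.05. That was so for 1993 of all genes without wild type replicate 1, and for 1306, 1111 and 1190 in the others.

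**Figure D2:**
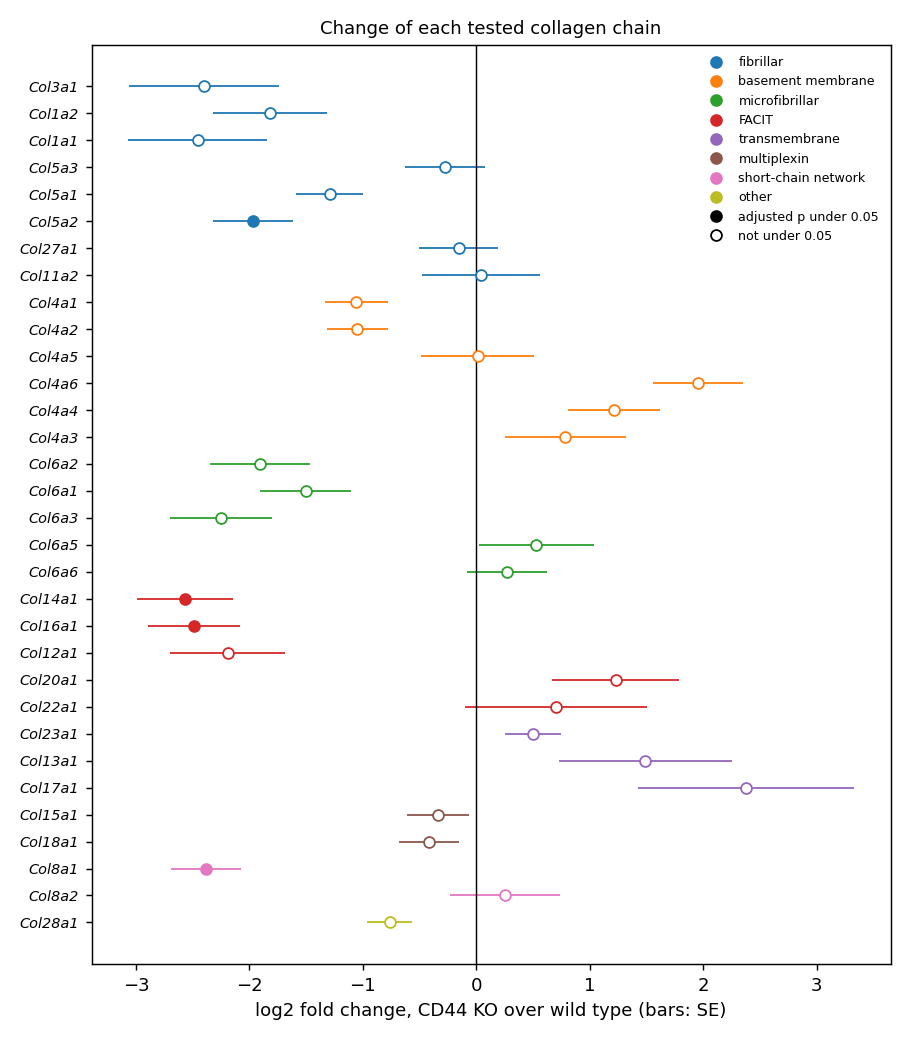
Log2 fold change (CD44 KO over wild type) of the 32 tested chains, ordered and coloured by class, with bars for the SE and filled points for an edgeR adjusted p under 0.05. The 4 filled points, Col5a2, Col14a1, Col16a1 and Col8a1, lie between -2.57 and -1.97.

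The fibrillar chains had the highest summed FPKM of any class in 5 of the 6 libraries, the exception being CD44 KO replicate 2, where type IV chains summed higher. Of 8 tested fibrillar chains 7 were negative with a median log2 fold change of -1.56. Col5a2 (a type V chain, which starts collagen fibrils and sets their width; chromosome 1, 45374321 to 45503282, minus strand, GRCm38) stood at 46.6, 56.4 and 49.3 FPKM in wild type against 18.8, 6.64 and 12.7 in the knockout. The highest knockout library lay well under the lowest wild type one. It fell 3.91-fold (95% interval 1.97 to 7.76; log2 fold change -1.97, SE 0.36, adjusted p by edgeR 0.0482). Leaving out 1 library at a time kept this call in 1 of 6 fits, the one without CD44 KO replicate 1.

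Col3a1 (type III collagen, the reticular fibril chain that is laid down early in scars; chromosome 1, 45311538 to 45349706, plus strand) had the highest mean FPKM of all chains. It stood at 715.3, 905.1 and 796.5 FPKM in wild type against 276.9, 47.2 and 139.5 in the knockout. In CD44 KO replicates 2 and 3 the type IV chain Col4a1 stood higher, at 110.8 and 156.0 FPKM. For Col3a1 the genotypes did not overlap, and the CD44 KO libraries were spread over a wide range. The log2 fold change was -2.40 (SE 0.66, adjusted p by edgeR 0.0871), a fold of 5.28 with a 95% interval of 1.48 to 18.8. Col1a1 and Col1a2, which build type I collagen, the main fibril of most connective tissue, stood at 94.1, 118.8 and 117.6 and at 155.7, 213.1 and 207.5 FPKM in wild type. In the knockout libraries they stood at 37.9, 6.23 and 15.2 and at 94.1, 21.7 and 45.2 FPKM. Both showed the order of Col3a1, with replicate 1 highest and replicate 2 lowest among the knockouts. Col1a1 had a log2 change of -2.46 (SE 0.61, adjusted p by edgeR 0.0759) and Col1a2 of -1.82 (SE 0.51, adjusted p 0.088). Without CD44 KO replicate 1 the log2 fold changes of Col1a1, Col1a2 and Col3a1 were -3.31, -2.47 and -3.25, and all were called. Without CD44 KO replicate 2 they were -2.04, -1.46 and -1.97, and none was called. Leaving out 1 library at a time, each of these chains was called in 1 of 6 fits.

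The type V chains differed among themselves. Col5a1, the common chain of type V collagen (chromosome 2, 27886425 to 28039514, plus strand), stood at 87.3, 56.9 and 51.7 FPKM in wild type against 33.2, 14.7 and 36.7 in the knockout, without overlap (log2 fold change -1.29, SE 0.29, adjusted p by edgeR 0.0658). Col5a3, a chain found in adipose tissue and muscle, stood at 83.0, 54.4 and 48.2 against 62.8, 27.9 and 58.9 FPKM, and its groups overlapped (log2 fold change -0.28, 95% interval -1.25 to 0.70). Col27a1 and Col11a2, fibrillar chains best known from cartilage, were at most 1.15 FPKM in every library, with log2 fold changes of -0.16 and 0.04. Col2a1, Col11a1 and Col24a1 had 0 to 18 counts per library and were not tested.

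The type VI chains split into the classical trimer and the other long chains. Col6a1, Col6a2 and Col6a3, which together form the classical molecule, were lower in every CD44 KO library than in any wild type library, while Col6a5 and Col6a6, related long chains that can stand in the place of Col6a3, overlapped. Col6a3, whose C-terminal end is cleaved off as endotrophin (chromosome 1, 90765923 to 90843971, minus strand), stood at 40.3, 45.9 and 34.4 FPKM in wild type against 13.4, 3.59 and 7.51 in the knockout. Its fold was 4.75 (95% interval 2.00 to 11.3; log2 fold change -2.25, SE 0.45, adjusted p by edgeR 0.0554). Col6a2 stood at 268.2, 178.1 and 183.0 against 91.3, 28.5 and 43.6 FPKM (log2 fold change -1.90, SE 0.44, adjusted p 0.0673). Col6a1 stood at 228.7, 161.9 and 154.6 against 100.4, 33.6 and 54.0 FPKM (-1.50, SE 0.40, adjusted p 0.0843). Wild type replicate 1 was the highest library for this pair, and CD44 KO replicate 2 the lowest. Col6a5 stood at 8.11, 9.51 and 12.2 against 25.2, 5.45 and 11.6 FPKM (log2 fold change 0.53, SE 0.51), and Col6a6 had 0.27 (SE 0.35). Col6a4 had 4 to 11 counts per library and was not tested.

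Type IV chains went in different directions. Col4a1 and Col4a2, which form the sheet of most basement membranes, lay lower without overlap, whereas Col4a4 and Col4a6, chains of specialised basement membranes, lay higher without overlap, and none of the 6 passed the test across all genes. Col4a1 stood at 375.8, 324.0 and 276.5 FPKM in wild type against 185.4, 110.8 and 156.0 in the knockout (log2 fold change -1.06, SE 0.28, adjusted p by edgeR 0.0799). Col4a2 stood at 206.9, 158.4 and 149.2 against 90.2, 55.2 and 96.8 FPKM (-1.05, SE 0.27, adjusted p 0.0772). Their folds, 2.08 and 2.07, were under those of Col5a2, Col3a1, Col1a1, Col1a2 and Col5a1 and above that of Col5a3, differences that were not tested. Col4a6, a chain of smooth muscle and epithelial basement membranes (chromosome X, 141165403 to 141474076, minus strand), stood at 0.36, 0.31 and 0.41 FPKM in wild type against 2.09, 0.76 and 1.24 in the knockout, from 40, 38 and 51 against 232, 90 and 128 counts. It is a low chain, and replicate 1 was the highest knockout library here too. The log2 fold change was 1.96 (SE 0.40, adjusted p by edgeR 0.0554), and without CD44 KO replicate 1 it was 1.53 and called. Col4a4, known from the kidney's filter, stood at 0.36, 0.20 and 0.17 against 0.62, 0.63 and 0.39 FPKM (1.21, SE 0.40, adjusted p 0.113), and Col4a3 had 0.79. Col4a5 stood at 4.16, 4.02 and 3.86 against 7.77, 2.14 and 2.86 FPKM (0.01, SE 0.50). Its direction rested on CD44 KO replicate 1, the 1 knockout library above wild type: without it the log2 fold change was -0.81 (edgeR adjusted p 0.0443). The smooth muscle and pericyte markers summed to 102.1 to 297.9 FPKM in wild type and 183.5 to 228.2 in CD44 KO. The mesothelial markers were higher in sum, as given above, with 8 of 8 higher without overlap, where 19.7% of all genes were. The part of both marker lists in the Col4a6 values was not tested.

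Of 5 tested FACIT chains, Col14a1 and Col16a1 fell, Col12a1 lay lower without overlap, and Col20a1 and Col22a1 had positive log2 fold changes. Col14a1, which binds fibril surfaces and limits their lateral growth (chromosome 15, 55307750 to 55520803, plus strand), stood at 17.4, 21.6 and 15.5 FPKM in wild type against 5.17, 1.37 and 2.24 in the knockout. It fell 5.94-fold (95% interval 2.63 to 13.4; log2 fold change -2.57, SE 0.42, adjusted p by edgeR 0.0416). Col16a1, a FACIT chain of fibrils and microfibrils (chromosome 4, 130047840 to 130099283, plus strand), stood at 15.5, 11.0 and 11.9 against 3.79, 2.39 and 1.41 FPKM. It fell 5.61-fold (95% interval 2.59 to 12.2; -2.49, SE 0.40, adjusted p 0.0402). In both, all 3 knockout libraries were well under the wild type range. Leaving out 1 library at a time kept each call in 1 of 6 fits, that without CD44 KO replicate 1, with adjusted p of up to 0.221 for Col14a1 and 0.233 for Col16a1 in the others. Col12a1, the FACIT chain of tendon and fascia, stood at 6.49, 4.25 and 6.82 against 1.29, 1.94 and 0.42 FPKM, also without overlap (-2.19, SE 0.51, adjusted p 0.068). Col20a1 stood at 0.12, 0.13 and 0.08 against 0.14, 0.32 and 0.35 FPKM (1.23, SE 0.56, adjusted p by edgeR 0.188). Its unscaled counts, 9, 11 and 7 against 10, 26 and 21, overlapped. Scaled to library size it was higher without overlap by the narrowest of gaps, 0.5936 CPM in CD44 KO replicate 1 against 0.5926 in wild type replicate 2. As given above, it passed the count filter through the CD44 KO group. Col22a1 was at most 0.12 FPKM in every library and overlapped (0.71, SE 0.80). Col9a1, Col9a2, Col9a3 and Col19a1 had 0 to 5 counts per library.

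Among the short-chain network chains, Col8a1 was the chain with the lowest adjusted p of all collagens. Col8a1, a chain of the hexagonal type VIII network in vessel walls (chromosome 16, 57624258 to 57754737, minus strand), stood at 5.15, 9.64 and 6.83 FPKM in wild type against 1.05, 1.58 and 1.36 in the knockout. The knockout libraries lay close together, and replicate 1 was the lowest here. It fell 5.22-fold (95% interval 2.89 to 9.42; log2 fold change -2.38, SE 0.31, adjusted p by edgeR 0.0282), and leaving out 1 library at a time kept the call in 3 of 6 fits. Its partner chain Col8a2 stood at 0.25, 0.54 and 0.27 against 0.53, 0.27 and 0.43 FPKM (0.25, SE 0.49). Col10a1, the chain of hypertrophic cartilage, had 5, 7 and 10 counts against 1, 0 and 0 and was not tested.

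The multiplexins, collagens of the basement membrane zone that carry heparan or chondroitin sulfate, were abundant and overlapped. Col15a1 stood at 172.7, 115.6 and 98.4 FPKM in wild type against 106.1, 62.0 and 131.9 in the knockout (log2 fold change -0.34, 95% interval -1.09 to 0.42). Col18a1, whose end is released as endostatin, stood at 60.7, 46.0 and 34.3 against 42.4, 26.2 and 31.0 FPKM (-0.42, 95% interval -1.16 to 0.32). These intervals leave room for a decrease of the size seen in Col4a1. The transmembrane chains, which stay anchored in the cell membrane, were low and had positive log2 fold changes of 0.50 (Col23a1), 1.49 (Col13a1) and 2.38 (Col17a1), none of them called. Col23a1 stood at 1.46, 0.88 and 1.14 against 1.58, 1.48 and 1.68 FPKM, so its groups did not overlap by a narrow gap. Col13a1, known from nerve-muscle junctions, stood at 0.35, 0.03 and 0.05 against 0.37, 0.26 and 0.39 FPKM. Col17a1, an anchor of epithelial cells, stood at 11, 2 and 8 counts against 19, 73 and 10, so the highest value was in CD44 KO replicate 2, the library with by far the most epididymis transcripts. The part of that tissue in the Col17a1 value was not tested. Col25a1 and the anchoring fibril chain Col7a1 had 0 to 38 counts per library and were not tested. Col28a1, a chain found beside Schwann cells of nerves, stood at 2.75, 2.73 and 2.81 against 1.45, 1.40 and 1.89 FPKM (-0.76, SE 0.20, adjusted p by edgeR 0.0792), with all 3 wild type libraries close together. Its Schwann marker list summed to 13.9 to 18.7 FPKM in wild type and 7.60 to 15.3 in CD44 KO. Col26a1 had 10, 9 and 8 counts against 0, 1 and 0 and was not tested.

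Summed over the 44 chains, collagen RNA was 2603, 2504 and 2267 FPKM in wild type against 1210, 469.0 and 860.7 in the knockout, and the genotypes did not overlap. Collagen made up 1.24%, 1.23% and 1.11% of counts in wild type against 0.614%, 0.238% and 0.431% in the knockout. Fibrillar chains summed to 1183, 1406 and 1272 FPKM against 524.6, 125.6 and 309.1, a ratio of the genotype means of 4.03. That ratio was 5.21 for FACIT, 4.40 for short-chain network, 3.11 for type VI, 2.11 for type IV and 1.32 for multiplexin chains, with no test. It was 0.601 for the transmembrane chains, whose sum was higher in each CD44 KO library (2.18 to 2.57 FPKM) than in wild type (0.93 to 1.96). As a share of collagen FPKM, fibrillar chains made up 52.6% ± 6.17 (SD, n = 3) in wild type and 35.3% ± 8.30 in CD44 KO. The library shares, 45.4%, 56.2% and 56.1% against 43.4%, 26.8% and 35.9%, lay nearest in replicate 1 of each genotype. The multiplexin share was 8.97%, 6.45% and 5.85% against 12.3%, 18.8% and 18.9%. A share is set by the other classes too, so a lower fibrillar share makes another class's share larger.

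**Figure D3:**
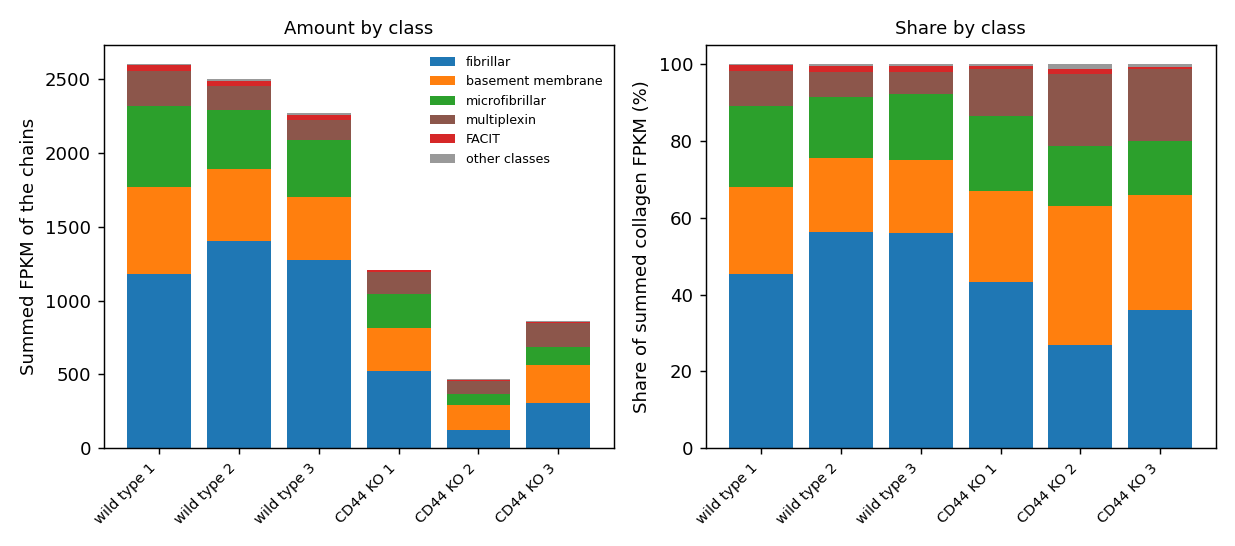
Summed FPKM of the collagen chains by class in each library (left, stacked bars from 0) and the same as a share of all collagen FPKM in percent (right). All 3 CD44 KO bars on the left are shorter than any wild type bar, and the fibrillar share on the right runs from 26.8% to 43.4% in CD44 KO and from 45.4% to 56.2% in wild type.

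The fibroblast and progenitor markers had lower sums in each CD44 KO library than in wild type, as collagen had. Of the 9 genes 8 had negative log2 fold changes. Without overlap 6 were lower (18.1% of all genes), and edgeR called 2 lower (0.882% of all genes). The 9 genes summed to 961.0, 1121 and 1081 FPKM in wild type against 813.5, 337.6 and 694.2 in the knockout. Collagen FPKM divided by that sum was 2.71, 2.23 and 2.10 in wild type against 1.49, 1.39 and 1.24 in the knockout, without overlap. The list holds the matrix genes Dcn, Dpt, Lum and Fbn1. Dcn weighs most in the sum, at 540.3, 673.4 and 658.0 FPKM in wild type against 558.4, 238.1 and 517.5 in the knockout. Dcn and Dpt had log2 fold changes of -0.48 and -0.53. Lum, Fbn1, Pi16 and Thy1 had -3.10, -2.26, -1.895 and -1.70, Pdgfra and Pdgfrb -1.13 and -0.76, and Dpp4 0.31. The ratio is thus mainly one to Dcn and Dpt. Collagen FPKM divided by the progenitor receptor Pdgfra alone overlapped, at 359.0, 132.2 and 197.7 against 174.9, 143.4 and 152.1. The part of stromal cell number in the collagen values was not tested. The endothelial markers summed to 171.4 to 355.9 FPKM in wild type and 213.2 to 405.8 in CD44 KO.

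Chains of 1 molecule did not all move by the same amount, although no ratio could pass its test. Of 7 ratios compared, 4 showed no overlap between genotypes, and 3 against 3 libraries cannot give an exact permutation p under 0.1. Col1a1 to Col1a2 was 0.604, 0.558 and 0.567 in wild type against 0.403, 0.288 and 0.336 in the knockout, so Col1a1 was farther down than its partner in each knockout library. Col6a1 to Col6a2 was 0.853, 0.909 and 0.845 against 1.10, 1.18 and 1.24, and Col6a3 to Col6a1 was 0.176, 0.284 and 0.222 against 0.134, 0.107 and 0.139. Col8a1 to Col8a2 was 20.6, 17.9 and 25.3 against 1.98, 5.85 and 3.16. These 4 each had an exact two-sided permutation p of 0.1 (0.175 adjusted over 7 ratios). Col4a1 to Col4a2 was 1.91 ± 0.123 (SD, n = 3) against 1.89 ± 0.243 (exact permutation p = 0.9). Col3a1 to Col1a1 was 7.33 ± 0.485 against 8.02 ± 1.02 and Col5a1 to Col5a2 1.31 ± 0.489 against 2.29 ± 0.567 (exact permutation p = 0.6 and 0.2).

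**Figure D4:**
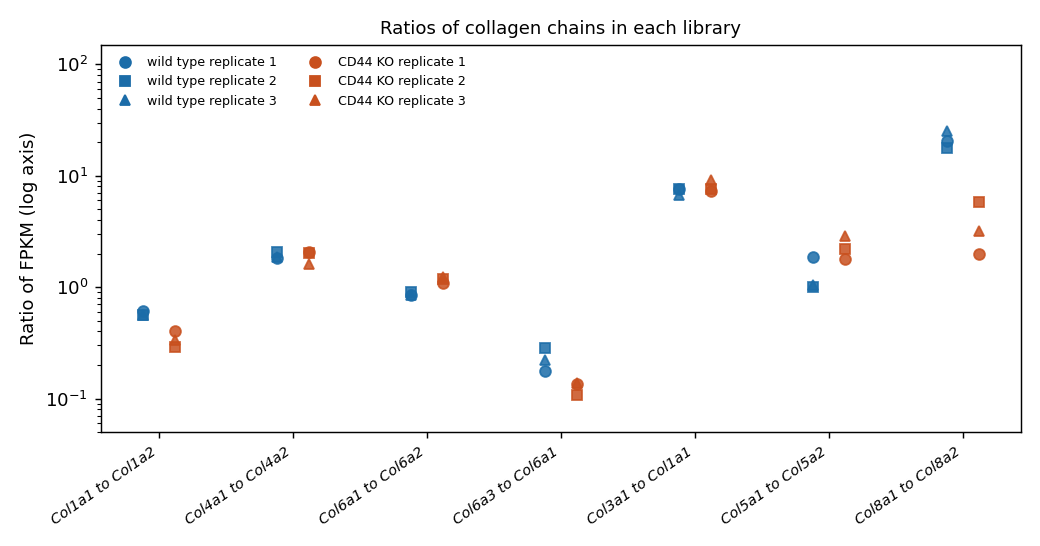
Ratio of the FPKM of 2 chains (log axis) in each library, blue for wild type and orange for CD44 KO. The ratios Col1a1 to Col1a2, Col6a1 to Col6a2, Col6a3 to Col6a1 and Col8a1 to Col8a2 do not overlap between the genotypes, whereas Col4a1 to Col4a2 lies between 1.61 and 2.06 in all 6 libraries.

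Type IV genes lie in head-to-head pairs, and the pairs gave different values. Col4a1 and Col4a2 on chromosome 8 start 21 bases apart and had log2 fold changes of -1.06 and -1.05. Their gene models share 22 exonic bases, and whether the counting used strand is not given. Col4a3 and Col4a4 on chromosome 1 start 72 bases apart and had 0.79 and 1.21. Col4a5 and Col4a6 on chromosome X start 1309 bases apart and had 0.01 and 1.96, and without CD44 KO replicate 1 they had -0.81 and 1.53. The neighbours Col3a1 and Col5a2 on chromosome 1 are 24.6 kb apart, and both were lower.

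Of the genes that modify, trim, crosslink or bind collagen, 6 fell. Of 45 genes in 5 roles 42 were tested, 36 with negative log2 fold changes (median -0.80). Without overlap 26 were lower and 1 (Ddr1) higher, where 18.1% and 19.7% of all genes were. By edgeR 6 were called lower and 0 higher, read against the 0.882% and 1.74% of all genes given above. At an unadjusted edgeR p under 0.05, 24 were lower and 1 higher, against 14.7% and 16.3% of all genes. All 6 calls were lost in the fits without replicate 2 or 3 of wild type or replicate 3 of CD44 KO, which called only 7, 0 and 2 of all genes lower. Without CD44 KO replicate 1, 19 genes of the list were called lower, where 9.65% of 14119 genes were. Without CD44 KO replicate 2, 2 genes of the list were called lower, where 36 of all genes were. Without wild type replicate 1, 3 were, where 62 of all genes were. Among the 8 genes that receive or take up collagen, Mrc2, the Endo180 receptor that internalises collagen fragments, stood at 26.7, 22.2 and 22.4 FPKM in wild type against 2.22, 0.70 and 1.83 in the knockout. The gap was wide, and it fell by 3.88 on the log2 scale (edgeR adjusted p 0.0252). Ddr1, a collagen receptor kinase, had 0.75 (SE 0.25).

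Propeptide removal, the step that lets procollagen assemble, held 3 of the 6 calls. Pcolce2 and Pcolce, enhancers of the C-proteinase, stood at 23.0, 9.47 and 12.3 and at 50.1, 71.0 and 67.3 FPKM in wild type, and at 1.96, 0.81 and 1.46 and at 21.3, 8.34 and 16.0 in CD44 KO. On the log2 scale Pcolce2 fell by 3.36 and Pcolce by 2.02 (adjusted p by edgeR 0.032 and 0.0412). Bmp1, the C-proteinase itself, stood at 25.5, 24.8 and 27.9 against 12.6, 6.70 and 9.47 FPKM and fell by 1.36 (adjusted p 0.0395). All 6 tested genes of this role were negative, as were all 5 crosslinking enzymes (medians -1.41 and -1.51), of which Lox was called at 33.8, 26.5 and 51.1 against 13.9, 8.69 and 7.33 FPKM. Plod2, which hydroxylates the telopeptide lysines used for crosslinks, stood at 5.20, 7.60 and 7.04 against 2.47, 1.38 and 2.27 FPKM and fell by 1.66 (adjusted p 0.0391). It was 1 of 14 tested genes for hydroxylation and glycosylation, 11 of them negative. The 9 genes of folding and export were all negative with none called (4 lower at an unadjusted edgeR p under 0.05). Their lowest p was that of Sec24d, a coat protein of procollagen export, at 24.7, 26.6 and 25.6 against 17.0, 13.8 and 15.8 FPKM (-0.68, SE 0.13, adjusted p 0.0522).

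**Figure D5:**
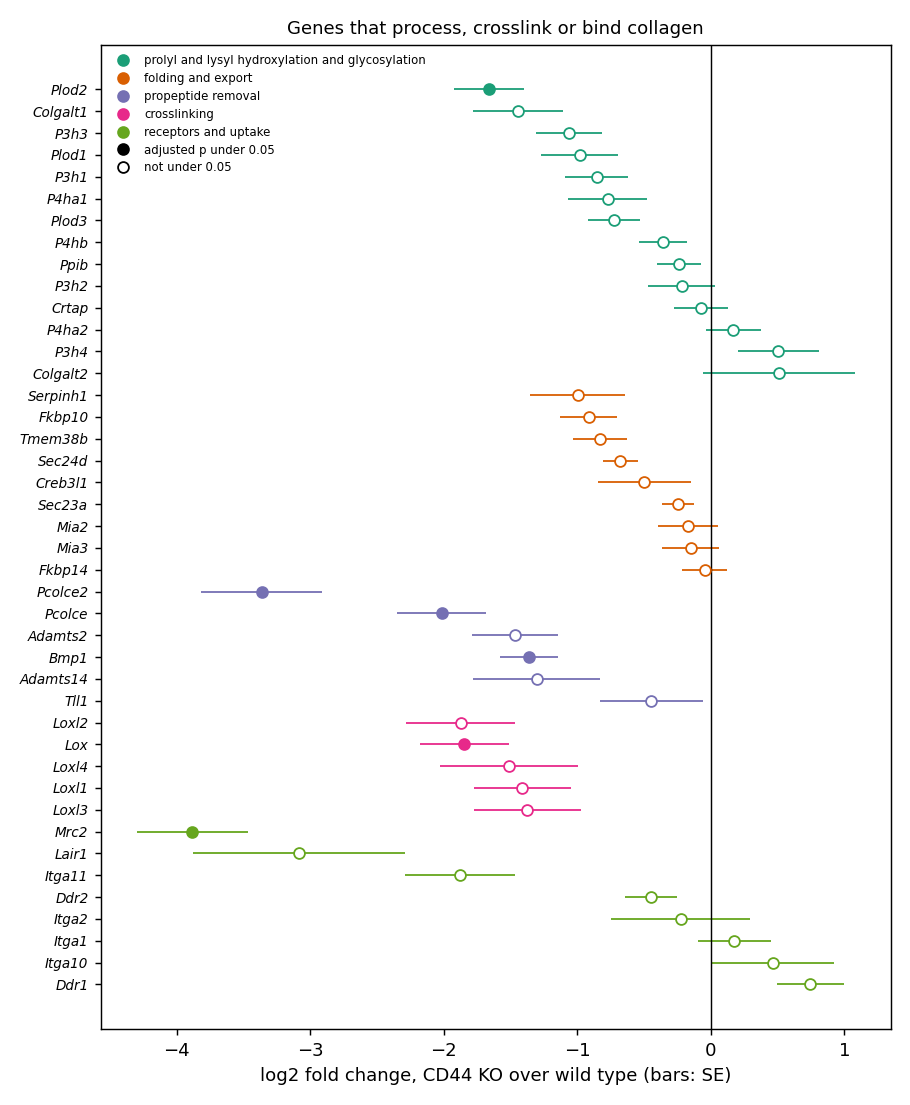
Log2 fold change (CD44 KO over wild type, bars for the SE) of the 42 tested genes that modify, export, trim, crosslink or bind collagen, coloured by role, with filled points for an edgeR adjusted p under 0.05. The 6 filled points are Plod2, Pcolce2, Pcolce, Bmp1, Lox and Mrc2, and 36 of the 42 points lie left of 0.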

How the data were processed

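Messenger RNA of epididymal fat was enriched with oligo(dT) beads and sequenced as NEBNext Ultra libraries, per the labels' protocols. The submitters' processing notes list RSEM, HISAT2, DESeq2 and StringTie 1.3.1 with no roles. Genome build, annotation and strandedness were not given in the sources used here. The authors deposited a table of expected counts (7.57% to 8.30% of the values in a library not whole) and FPKM per gene, the latter scaled by the authors for length and library size. A table of the authors' own comparison was not used.

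After rounding, the expected counts went into edgeR 4.0.16 (R 4.3.3; filterByExpr, TMM, robust quasi-likelihood F-test), with Benjamini-Hochberg adjustment over all 13829 genes kept. A call is an adjusted p under 0.05. Intervals of folds use 4 residual degrees of freedom, unlike the moderated test, and the 2 can differ. FPKM served for levels, sums and ratios (exact permutation test, scipy 1.17.1). The edgeR script was tested on simulated data. The alternatives were other normalizations, no count filter, DESeq2 1.42.0, limma 3.58.1 on log2(FPKM + 0.1), a replicate block and leaving out each library.

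The members and lists were chosen with earlier results of these data known. Values in every library are given for called chains, the 2 most abundant per class, positive chains with an unadjusted p under 0.05, the 3 nearest the threshold, called genes of the collagen pathway list and the lowest p of each role. Any other chain was chosen after its values were seen. Of the other marker lists, skeletal muscle summed to 5.06 to 30.9 FPKM in wild type and 12.6 to 22.6 in CD44 KO (Ttn at 0 throughout), and cartilage and bone to 4.26 to 9.34 and 1.77 to 2.48 (Bglap and Ibsp at 0 throughout). No molecular identifiers were stated, so reads may repeat molecules.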

Additional observations from a re-analysis of the deposited data

How the results depend on the processing

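The median log2 fold change of the collagen chains kept its direction in every alternative (-0.48 to -0.17 when a library was left out), and 15 to 17 chains were lower at an unadjusted p under 0.05 in each. The calls moved more. Without a count filter edgeR called 2 chains lower and 145 genes of all higher, against 4 and 240. DESeq2 called 16 chains lower and 1 higher, 22 collagen pathway genes lower, and 1459 and 1487 of all genes lower and higher. With a replicate block edgeR called 0 chains, 0 pathway genes and 0 genes in all in either direction (1220 genes lower, 1585 higher when p under 0.05 was not adjusted, of which 15 and 2 were chains). Whether the replicate numbers pair the libraries is not given. Deviations of libraries with the same number from their group means correlated at -0.32, -0.22 and -0.02. These values cannot decide it, because deviations from a mean of 3 libraries depend on each other. limma on FPKM called 206 of all genes lower, against 122. Leaving out 1 library gave 0 to 12 chains lower, 0 to 1 higher, 0 to 19 pathway genes lower, 0 to 1363 of all genes lower and 0 to 1007 higher. The cause was not tested. Of 384 values of single chains under alternatives, 327 kept direction and side of the threshold, 25 lost and 21 gained a call, and 11 reversed. Of the chains that reversed, Col4a5 (0.01 with all libraries) stood at -0.0103 with library totals, -0.0087 by DESeq2, -0.25 with the replicate block, -0.14 by limma and -0.81 to 0.33 without 1 library. Col11a2 (0.04) stood at -0.0272 with the replicate block, -0.0278 by limma, and at -0.30 to 0.31 without 1 library. Without 1 library Col27a1 (-0.16) ran from -0.44 to 0.0531, Col5a3 (-0.28) from -0.46 to 0.0041 and Col6a5 (0.53) from -0.16 to 0.90. Col5a2 missed the threshold with library totals (edgeR adjusted p 0.0537) and without a count filter (0.0551), where Col14a1 did too (0.0501). Low counts limit the 12 untested chains and those under 1 FPKM.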
